A study of Homo sapiens with 2 samples.

Results

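The YTH and IGF2BP proteins read N6-methyladenosine (m6A), a methyl mark on adenosines of messenger RNA, and the 8 genes described here are YTHDF1, YTHDF2, YTHDF3, YTHDC1, YTHDC2, IGF2BP1, IGF2BP2 and IGF2BP3. They were taken by name from a deposited table of 30856 gene rows, and each name matched 1 row. The RNA came from THP-1, an established human line of acute myeloid leukaemia cells with monocytic features, with 1 library from the untreated parental line and 1 from a subline that resists cytarabine (Ara-C). This drug is an analogue of deoxycytidine that stops DNA synthesis. Resistance had been raised by stepwise exposure from 5 nM up to 10 µM, until the cells doubled as fast as untreated ones. The labels give no other treatment or genetic change in either library, and they do not say whether the resistant cells were 1 clone or whether drug was present at harvest. With 1 library a group there was no test between conditions, and each difference below is between these 2 libraries only.

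m6A is placed by a methyltransferase complex built around METTL3 and METTL14 and can be removed by FTO and ALKBH5. Reader proteins then bind the marked RNA. The YTHDF proteins work in the cytoplasm, where YTHDF2 brings marked mRNAs to the CCR4-NOT deadenylase for decay. YTHDC1 is the nuclear reader and acts in splicing, export and the turnover of nuclear RNA, and YTHDC2 is an RNA helicase with a YTH domain. The IGF2BP proteins bind RNA through KH domains and are known for keeping target mRNAs such as MYC stable; IGF2BP1 and IGF2BP3 are oncofetal genes, made in embryonic tissue and in some cancers.

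The starts of 6 of the 8 genes were taken from a RefSeq table of promoters (GRCh38.p14), with 8 starts in all. No start was used for YTHDF3 or IGF2BP1, which does not show that the table lacks them. The 250 bases before the start are shown for 5 of these 8 starts, which set some of the expressed readers beside IGF2BP3, the reader with no counts in either library. Each runs 5′ to 3′ on the strand of its gene: YTHDC1 at chr4:68350091-68350340 (minus), YTHDC2 at chr5:113513444-113513693 (plus), YTHDF1 at chr20:63216132-63216381 (minus), IGF2BP3 at chr7:23470492-23470741 (minus) and IGF2BP2 at chr3:185825043-185825292 (minus). Capitals mark the cyclic AMP response element TGACGTCA and the E-box CACGTG, both of which read the same on either strand.
YTHDC1: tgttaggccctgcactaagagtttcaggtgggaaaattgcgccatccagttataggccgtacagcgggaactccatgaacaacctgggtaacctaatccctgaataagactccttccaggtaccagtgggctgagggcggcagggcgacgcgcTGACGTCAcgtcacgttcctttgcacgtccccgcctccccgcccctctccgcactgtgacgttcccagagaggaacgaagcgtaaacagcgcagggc
YTHDC2: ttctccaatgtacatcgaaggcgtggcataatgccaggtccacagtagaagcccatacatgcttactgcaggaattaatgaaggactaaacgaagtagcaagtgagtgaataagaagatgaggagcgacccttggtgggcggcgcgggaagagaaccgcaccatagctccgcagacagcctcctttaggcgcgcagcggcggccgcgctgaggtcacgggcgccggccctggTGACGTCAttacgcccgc
YTHDF1: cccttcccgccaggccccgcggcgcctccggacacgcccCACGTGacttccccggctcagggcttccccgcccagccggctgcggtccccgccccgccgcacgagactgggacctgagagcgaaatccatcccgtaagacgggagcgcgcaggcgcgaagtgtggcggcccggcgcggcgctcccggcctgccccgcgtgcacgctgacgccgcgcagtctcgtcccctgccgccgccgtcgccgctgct
IGF2BP3: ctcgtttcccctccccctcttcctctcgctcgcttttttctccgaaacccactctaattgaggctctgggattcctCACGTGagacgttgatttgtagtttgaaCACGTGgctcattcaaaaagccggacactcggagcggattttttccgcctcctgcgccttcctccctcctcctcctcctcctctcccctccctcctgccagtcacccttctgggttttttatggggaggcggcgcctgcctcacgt
IGF2BP2: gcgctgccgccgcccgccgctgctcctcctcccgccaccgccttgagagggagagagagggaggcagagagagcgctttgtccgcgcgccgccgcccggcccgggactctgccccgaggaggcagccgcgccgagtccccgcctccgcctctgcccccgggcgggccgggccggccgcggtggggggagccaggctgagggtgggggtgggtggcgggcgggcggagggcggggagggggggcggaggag

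YTHDC1 and YTHDC2, the pair named for a YTH domain outside the YTHDF group, each held 1 TGACGTCA, which ended 90 and 11 bases before the start. This motif was in 1.65% of all 35116 windows of this length in the table. CACGTG was found in 6.34% of the windows. It occurred once before YTHDF1, which was expressed, and 2 times before IGF2BP3, which was not. The window before IGF2BP2 held neither motif and 7 copies of the GC box GGGCGG or its complement, some of which overlap, and 42.6% of all windows held at least 1. The window before IGF2BP3 held no GC box, those before YTHDF1 and YTHDC1 held 2 each, and that before YTHDC2 held 1. CCAAT, searched on both strands, was in 32.0% of all windows and in the window before YTHDC2 among those shown. CpG dinucleotides numbered 40 before YTHDF1, 32 before IGF2BP2, 21 before YTHDC2, 18 before YTHDC1 and 15 before IGF2BP3, beside a median of 11 over all windows. The window of the reader without counts was thus not low in CpG, and its GC content (56.8%) was near the median of 58.0%. YTHDF2 had 2 listed starts, with 12 and 34 CpG and 2 and 4 GC boxes, and held neither the response element nor the E-box. IGF2BP2 had a second start with 2 CpG, 32.8% GC and no GC box. The motifs were chosen after the sequences were seen, and a match is a description of the letters only.

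The parental library held 57434972 counts and the resistant library 58285463. Mitochondrial transcripts took 5.96% and 5.92% of them. Of 11 markers of myeloid cells, 10 reached 1 FPKM (fragments per kilobase, scaled to library size) in at least 1 library, among them the transcription factor gene SPI1 (64.4 FPKM in parental and 62.3 in resistant cells) and the surface antigen gene CD33 (11.9 and 11.1). The exception was CD14, at 0.50 and 0.03 FPKM. Of the markers of other lineages that had a row, only NCAM1 reached 1 FPKM (5.47 and 5.98). LYZ, MPO and CSF1R were at least 1.5-fold lower in the resistant library, and none of the 10 was 1.5-fold higher. Of all 11388 genes with a symbol that reached 1 FPKM, 543 were at least 1.5-fold lower and 334 higher. Of the 10, 7 had a log2 ratio below 0, where 53.3% of those 11388 genes were, and 3 above it. The 3 were FCGR1A (29.6 FPKM in parental and 41.2 in resistant cells), ELANE (359 and 448) and CEBPA (139 and 141). The part of these markers in the reader values was not tested.

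The readers stood at almost the same level in parental and resistant cells. Of the 8 genes, 6 reached 1 FPKM in at least 1 library, and the other 2, IGF2BP1 and IGF2BP3, were close to or at 0 in both. None of the 6 was 1.5-fold apart, measured as the log2 ratio of FPKM + 1, where 7.7% of 11388 expressed genes were. None was 2-fold apart, where 1.86% of the expressed genes were. The median log2 ratio of the 6 was -0.03, with 1 gene above 0 and 5 below, beside a median of -0.02 over all expressed genes, of which 53.3% were below 0. The middle 95% of all expressed genes ran from -0.77 to 0.63, and the readers from -0.14 to 0.02.

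**Figure D1:**
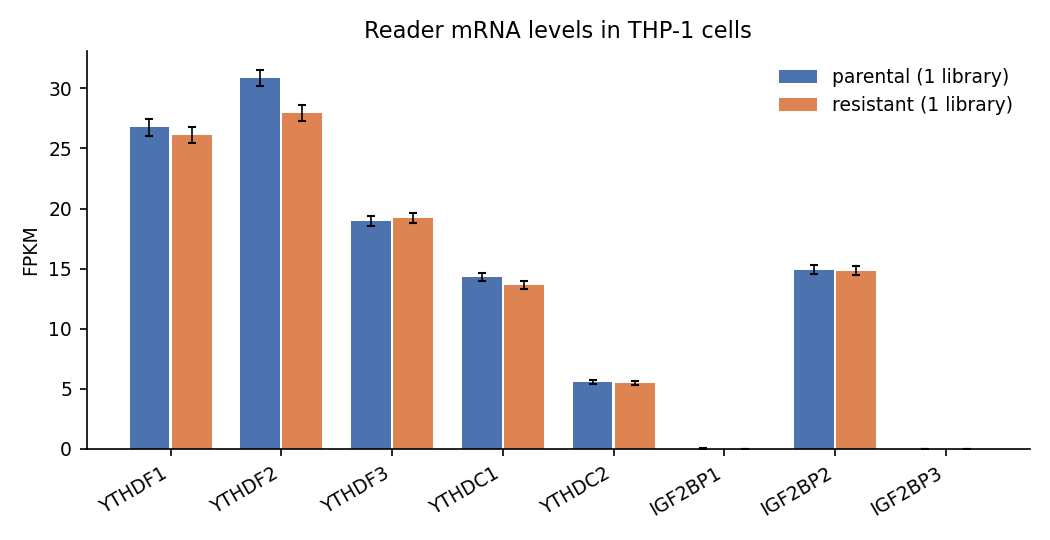
FPKM of the 8 readers (y axis) in the parental and the resistant library, 1 library each; error bars are 95% Poisson counting intervals and cover no spread between cultures. YTHDF2 is the highest in both libraries (30.9 and 27.95 FPKM), and IGF2BP1 and IGF2BP3 lie on the axis.

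YTHDF2, the decay reader, had the largest difference of the 6. It stood at 30.9 FPKM in parental cells and 27.95 in resistant cells, from 7675 and 7071 counts. Relative to the library totals this was a fold of 0.908, with an exact 95% counting interval of 0.879 to 0.938. The log2 ratio was -0.14, and 45.4% of all expressed genes had a smaller ratio in absolute size. The resistant library was therefore lower by more than counting error, with each count taken as an independent molecule. The difference was smaller than that of most genes in the table. A processed pseudogene of this reader, YTHDF2P1 on chromosome 14, had 14 and 7 counts.

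YTHDF1, which is known for promoting translation of marked mRNAs, stood at 26.8 FPKM in parental and 26.1 in resistant cells, from 5720 and 5683 counts. Its fold was 0.979 (0.944 to 1.02). YTHDF3, a cofactor of the other two, stood at 18.9 and 19.2 FPKM, from 7782 and 8022 counts, and its fold was 1.02 (0.984 to 1.05). It was the one expressed reader whose value was higher in the resistant library, and the counting interval of both genes held 1.

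YTHDC1, the nuclear reader, stood at 14.3 FPKM in parental and 13.6 in resistant cells, from 6710 and 6507 counts. The fold was 0.956 (0.923 to 0.989). With counts scaled by the median of the expressed genes in place of the library total, the fold was 0.967 and its interval held 1. YTHDC2 stood at 5.59 and 5.45 FPKM, from 4030 and 3999 counts, with a fold of 0.978 (0.936 to 1.02). Its level was the lowest of the expressed readers and near the middle of the table, with 46.9% of expressed genes below it in parental cells; for YTHDF2 the figure was 89.6%.

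IGF2BP2 was the IGF2BP gene of these cells. It stood at 14.9 FPKM in parental and 14.8 in resistant cells, from 5306 and 5367 counts, and its fold was 0.997 (0.959 to 1.04). Its log2 ratio was -0.01 as deposited and 0.01 when centred on the median of expressed genes, so it has no direction. IGF2BP1 had 10 and 6 counts, which gives a ratio of 0.591 with a counting interval of 0.177 to 1.80. IGF2BP3 had 0 counts in both libraries. For a count of 0 the 95% Poisson counting interval ran up to 3.69 counts, or 0.0130 FPKM in parental and 0.0128 in resistant cells. Per length, IGF2BP2 was 823-fold higher than IGF2BP1 (448 to 1717, from the counting error of IGF2BP1) in parental cells and 1384-fold higher (636 to 3772) in resistant cells. Of the counts of the 3 IGF2BP genes, IGF2BP2 held 99.8% in parental cells (exact 95% interval 99.7% to 99.9%) and 99.9% in resistant cells (99.8% to 99.96%).

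**Figure D2:**
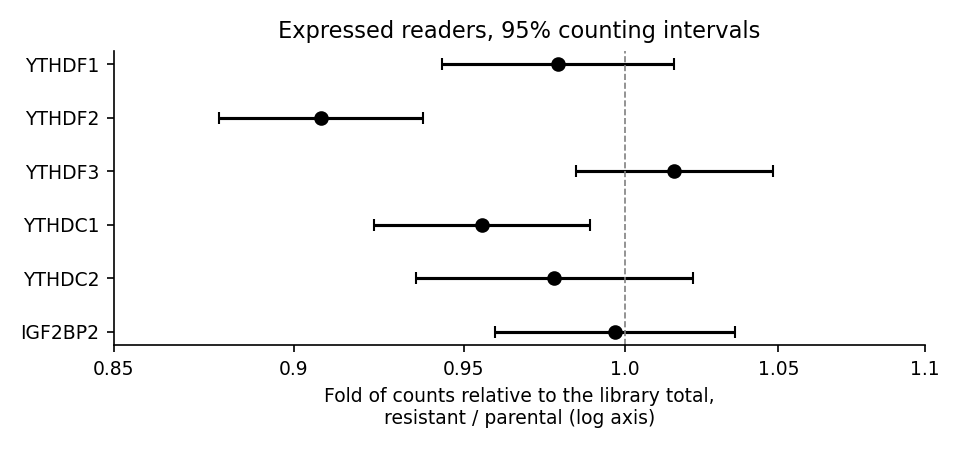
Ratio of count shares of the library, resistant over parental (x axis, log scale), for the 6 expressed readers; points are single ratios of 2 libraries and bars their exact 95% counting intervals. The bars of YTHDF2 (0.879 to 0.938) and YTHDC1 (0.923 to 0.989) end below 1, and the other 4 cross it.

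The counting interval thus excluded equal levels for 2 of the 6 expressed readers, YTHDF2 and YTHDC1, both lower in resistant cells. Over all expressed genes it did so for 72.8%, and for 39.1% with the resistant library lower. All 6 intervals lay between 0.879 and 1.05. They cover counting error only, treat counts as independent molecules, and hold nothing of the spread between cultures. Whether a count is a read or a pair is not given, so the intervals may be too narrow. The 8 readers together made up 648 CPM (counts scaled to library size) in parental and 629 in resistant cells, a fold of 0.970 (0.956 to 0.984).

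**Figure D3:**
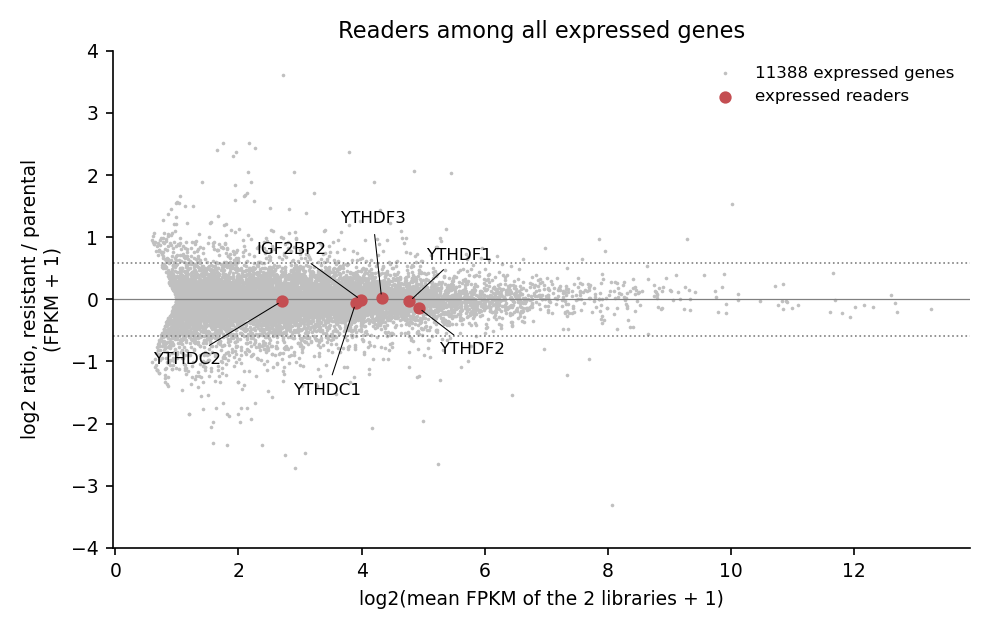
Log2 ratio of FPKM + 1, resistant over parental (y axis), against log2 of the mean FPKM of both libraries + 1 (x axis), for 11388 expressed genes in grey and the 6 expressed readers in red; dotted lines mark a 1.5-fold difference. The readers lie between -0.14 and 0.02, inside the dotted lines.

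In both libraries the readers held the same order of level: YTHDF2, YTHDF1, YTHDF3, IGF2BP2, YTHDC1 and YTHDC2. YTHDF2 was 1.15-fold above YTHDF1 in parental cells and 1.07-fold above it in resistant cells. The FPKM counting intervals of neighbours in this order did not overlap, with the exception of IGF2BP2 and YTHDC1 in parental cells (14.5 to 15.3 and 14.0 to 14.6). YTHDC1 stood 2.56-fold above YTHDC2 in parental and 2.50-fold in resistant cells. Among the YTHDF genes, YTHDF2 made up 40.3% of the summed FPKM in parental and 38.2% in resistant cells. YTHDF1 made up 35.0% and 35.7%, and YTHDF3 24.7% and 26.2%. By counts the share of YTHDF2 was 36.2% (exact 95% interval 35.6% to 36.9%) in parental and 34.0% (33.4% to 34.7%) in resistant cells, and that of YTHDF3 was 36.7% (36.1% to 37.4%) and 38.6% (37.9% to 39.3%). The intervals of both genes were apart between the libraries, and those of YTHDF1, at 27.0% (26.4% to 27.6%) and 27.4% (26.7% to 27.97%), overlapped. Shares of a sum are tied, so a lower share of YTHDF2 raises those of the others. Relative to the library totals, the fold of YTHDF3 was 1.02 (0.984 to 1.05), and its interval held 1. For 72.8% of all expressed genes the counting interval of the fold excluded 1.

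Levels of different readers rest on the length that the FPKM divides by, which here was not that of the main mRNA. For 673 genes with a single transcript, counts and FPKM implied a length 1.16 times that of the transcript in GENCODE 29, as the median over these genes. After division by this factor, the length implied for 5561 genes with several transcripts was within 2% of the union of all their exons for 65.3% of them, and within 2% of the longest coding transcript for 4.26%. For YTHDC2 the implied length was 10.8 kb, while its longest coding transcript has 6.32 kb in 30 exons; the table lists 6 transcripts for it, retained introns among them. For IGF2BP2 the lengths were 5.34 and 3.69 kb, for YTHDF2 3.73 and 2.93 kb, for YTHDF3 6.17 and 5.19 kb, and for YTHDC1 7.04 and 6.23 kb. YTHDF1 was close, at 3.21 and 3.30 kb. The union of exons was 3.30 kb for YTHDF1, 3.83 for YTHDF2, 5.81 for YTHDF3, 7.00 for YTHDC1, 10.7 for YTHDC2 and 4.60 for IGF2BP2. Only YTHDC1 and YTHDC2 had an implied length within 2% of it, and that of IGF2BP2 was the furthest above it. Divided by the longest coding transcript instead, the levels in parental cells were 39.4 for YTHDF2, 26.0 for YTHDF1, 22.5 for YTHDF3, 21.6 for IGF2BP2, 16.2 for YTHDC1 and 9.58 for YTHDC2. The order of the 6 was as before, but IGF2BP2 came close to YTHDF3, and YTHDC2 was at 9.58 in place of 5.59. This rescaling leaves the difference between libraries as it was, since the same length applies to both.

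By position (GRCh38, as deposited) the members lie on 8 chromosomes: YTHDF1 on chromosome 20 from 63195429 to 63216139, YTHDF2 on 1 from 28736621 to 28769775, YTHDF3 on 8 from 63168553 to 63212786, YTHDC1 on 4 from 68310387 to 68350090, YTHDC2 on 5 from 113513694 to 113595285, IGF2BP1 on 17 from 48997385 to 49056145, IGF2BP2 on 3 from 185643130 to 185825042 and IGF2BP3 on 7 from 23310209 to 23470491. The expressed genes within 1 Mb had median log2 ratios of -0.02 around YTHDF1 (37 genes), -0.03 around YTHDF2 (25 genes), -0.04 around IGF2BP2 (13 genes) and -0.02 around YTHDC2 (5 genes). Around IGF2BP1 the median was 0.05 (16 genes) and around IGF2BP3 0.12 (10 genes). YTHDC1 had 2 such neighbours, UBA6 (-0.21) and CENPC (0.04), and YTHDF3 had 1, GGH (-0.28). Of the genes that overlap a member, MALSU1 shares 1521 bases with IGF2BP3 on the opposite strand and had 1238 counts in parental and 1247 in resistant cells, where IGF2BP3 had 0. The antisense gene IGF2BP2-AS1, inside IGF2BP2, had 12 counts in parental cells and 0 in resistant cells. YTHDF3-AS1 runs away from YTHDF3 on the opposite strand, with 110 bases between them and no overlap. YTHDF3-AS1 was chosen after its values were seen and had 37 counts in parental and 7 in resistant cells, a fold of 0.186 (0.0701 to 0.424). Its FPKM was 0.77 and 0.13, and YTHDF3 itself was 1.02-fold apart. Whether counting used strand is not given in the sources used here. Reads of genes that overlap on opposite strands therefore cannot be told apart with certainty.

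Over both libraries, the protein-coding genes nearest to each reader in log2(FPKM + 1), by Euclidean distance among 10288 genes, were CHD4 for YTHDF1 (26.75 and 25.9 FPKM in parental and resistant cells), CENPX for YTHDF2 (30.3 and 27.9) and FAM72C for YTHDF3 (18.9 and 19.1). They were MAP4K4 for YTHDC1 (14.2 and 13.55), KCNN2 for YTHDC2 (5.57 and 5.48) and RNASEH1 for IGF2BP2 (14.9 and 14.8). With 2 libraries this is a likeness of level alone.

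The genes that place, remove or share the reading of m6A were also mostly near equal, with wider ranges than the YTH and IGF2BP readers. None of the 13 writers, 2 erasers and 12 other readers was 1.5-fold apart on the FPKM + 1 scale. The writers ran from -0.30 (ZCCHC4, a ribosomal RNA methyltransferase) to 0.40 (METTL14, at 3.52 FPKM in parental and 4.96 in resistant cells), with a median of -0.07; WTAP, the adaptor of the complex, stood at 14.0 and 16.8. Of the demethylases, ALKBH5 had 8.69 FPKM in parental and 10.3 in resistant cells and FTO 1.73 and 1.69. Among other readers the median was -0.05, and HNRNPA2B1 (175 and 145 FPKM), PRRC2A (94.7 and 81.9) and HNRNPC (84.2 and 74.2) had the largest ratios. The table's own gene ontology term for binding m6A RNA was on 7 genes, the 5 YTH readers, HNRNPA2B1 and HNRNPC, and on none of the IGF2BP genes. Of these 7, 6 were below 0, where 53.3% of all expressed genes were. A counting interval below 1 was found for 4 of them, YTHDF2, YTHDC1, HNRNPA2B1 and HNRNPC, and for 39.1% of all expressed genes.

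Partners of the readers were counted in lists written for this purpose, with earlier results of these data known. Of 29 expressed genes of deadenylation and decay that act with YTHDF readers, none passed the 1.5-fold rule, which includes the pseudocount, and the median log2 ratio was -0.03, with 12 above 0 and 17 below. The largest ratio was that of TOB2, an adaptor of the CCR4-NOT deadenylase, at 11.3 FPKM in parental and 7.42 in resistant cells (fold of counts 0.660, 0.625 to 0.697). Its log2 ratio was -0.54 with the pseudocount of 1 FPKM, which keeps it inside the 1.5-fold rule, while its counts without a pseudocount were beyond it. Of the deadenylase complex itself, CNOT3 stood at 9.21 and 7.64 and the catalytic subunit CNOT8 at 17.2 and 14.7. Of 22 nuclear partners of YTHDC1, in splicing, export and exosome targeting, none was 1.5-fold apart and the median was -0.03. SRSF3, a splicing factor that binds YTHDC1, stood at 72.8 FPKM in parental and 58.4 in resistant cells, a fold of 0.805 (0.792 to 0.818). ZFC3H1, which targets nuclear RNA to the exosome, stood at 7.10 and 5.50, and the export factor gene NXF3 at 10.4 and 12.8.

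Partners of YTHDC2 and of IGF2BP proteins had a median of -0.01 over 16 expressed rows, with none 1.5-fold apart. MATR3, a nuclear matrix protein, had 2 overlapping rows on the same strand, at 24.5 and 16.7 FPKM in the one and 21.8 and 26.2 in the other. Summed, they gave 27876 counts in parental and 28651 in resistant cells, a fold of 1.01 (0.996 to 1.03), so each row alone is uncertain. DDX21, an RNA helicase, stood at 80.1 and 94.25 FPKM. Among 16 expressed genes reported elsewhere as mRNA targets of these readers, the median was -0.0005, with 8 above 0 and 8 below and none 1.5-fold apart. GPT2, an enzyme of glutamine use, stood at 5.07 FPKM in parental and 7.02 in resistant cells (fold 1.39, 1.31 to 1.47). MYB, a transcription factor gene of blood progenitors, stood at 98.4 and 129 (fold 1.31, 1.29 to 1.33), and MCM5, a subunit of the replication helicase, at 36.3 and 29.1 (fold 0.804, 0.786 to 0.822).

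**Figure D4:**
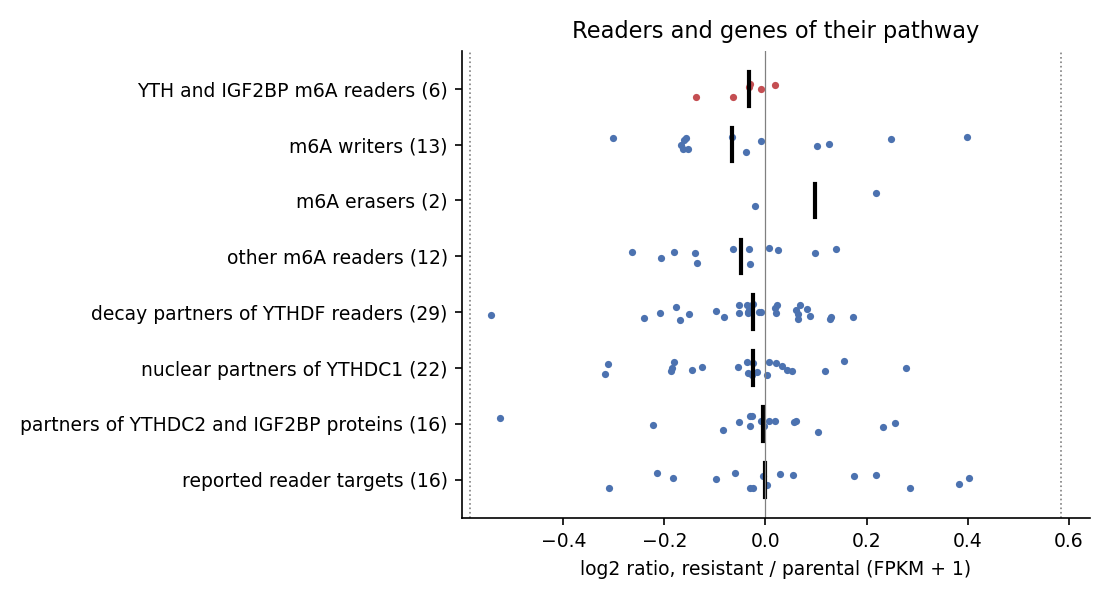
Log2 ratio of FPKM + 1, resistant over parental (x axis), of the expressed genes in each list (rows, with the number of genes), 1 point a gene; black bars are medians and dotted lines a 1.5-fold difference. The 6 readers span -0.14 to 0.02, and no gene of the 7 other lists lies beyond a dotted line.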

How the data were processed

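Poly(A) RNA of 1 parental and 1 resistant THP-1 library was read from the authors' deposited gene table. The deposited FPKM values are scaled to gene length and library size, per the file headers, and the deposited read counts are whole numbers without normalisation. Per the submitters' processing notes, the build was GRCh38 and the tools, in roles not stated, included edgeR, DESeq2, StringTie 1.3.4d, HISAT2 2.0.4 and cutadapt 1.9. Annotation release, strand setting and what a count stands for (a read or a pair) are not given in the sources used here.

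Columns were matched to samples by the title of each sample. The name of the resistant count column has a suffix that the resistant FPKM column lacks. Both were taken as 1 library, because log2 ratios from FPKM and from counts were nearly equal (median difference -0.004 over 6039 genes). Log2 ratios used a pseudocount of 1 FPKM, which shrinks differences of low genes. Genes counted as expressed had a symbol (22880 rows; the other 7976 are named from clones) and at least 1 FPKM in at least 1 library. Folds of counts are relative to the library totals, with exact Clopper-Pearson 95% intervals of the resistant share. Members, lists and the rule for named genes (all members, overlapping genes, the 3 largest absolute ratios of a list, and the nearest gene by level) were chosen with earlier results of these data known. Lists of B, plasma, epithelial and fibroblast markers had 0 genes at 1 FPKM, and none of the 4 erythroid markers had a row. Promoters came from RefSeq and transcript lengths from GENCODE 29. The interval step was tested on simulated counts. Versions were matplotlib 3.10.9, scipy 1.17.1, pandas 2.3.3, numpy 2.4.6 and Python 3.11.15.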

Additional observations from a re-analysis of the deposited data

How the results depend on the processing

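No reader was 1.5-fold or 2-fold apart under any of the alternatives run: a pseudocount of 0.1 or 5 FPKM, CPM in place of FPKM, centring on the median of expressed genes, no filter on low values, or a minimum of 5 FPKM. Log2 ratios ranged over these settings from -0.14 to -0.12 for YTHDF2, -0.07 to -0.05 for YTHDC1, -0.04 to -0.01 for YTHDC2, -0.03 to -0.01 for YTHDF1, 0.01 to 0.04 for YTHDF3 and -0.01 to 0.01 for IGF2BP2, whose sign changed with centring. The count of readers whose interval excluded equal levels was 2, and 1 (YTHDF2) with scaling by the median of expressed genes; without mitochondrial genes it was 2. Shares within the YTHDF genes depend on length: by counts, YTHDF1, YTHDF2 and YTHDF3 took 27.0%, 36.2% and 36.7% in parental and 27.4%, 34.0% and 38.6% in resistant cells. Per length of the longest coding transcript, an alternative chosen after seeing the data, they took 29.6%, 44.8% and 25.6% in parental and 30.3%, 42.5% and 27.2% in resistant cells. No paired analysis was possible because each group holds 1 library. Depth limits IGF2BP1 and IGF2BP3, for which a difference between libraries was not detectable at these counts.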
